A study of Mus musculus with 18 samples.

Results

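The genes described here encode 7 enzymes on the routes that break down proline and hydroxyproline and dispose of glyoxylate: Prodh, Prodh2, Aldh4a1, Hoga1, Agxt, Agxt2 and Grhpr. They were chosen by name for their place in the pathway, 7 of 54532 genes listed in the deposited tables, and all 7 were expressed well above the limit for testing in both experiments. Liver RNA came from male wild-type C57BL/6J mice placed on diet at about 1 month of age, with 1 library per mouse and an overnight fast before harvest. In the first experiment, 5 mice ate the control diet (Ctrl) and 5 the riboflavin-deficient diet (B2D) for 1 month. In the second, 4 control (Ctrl+FF) and 4 deficient (B2D+FF) mice stayed on the same diets for 9 weeks, were gavaged with fenofibrate, a drug that activates the nuclear receptor PPARα, in weeks 7 to 9, and received it 2 hours before harvest. Both diets were isocaloric and supplied protein as free amino acids. Fenofibrate was given to every mouse of the second experiment and to none of the first, so the drug, the weeks on diet and the experiment cannot be told apart. Numbers of mice follow the order of the sample records.

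Riboflavin (vitamin B2) is the precursor of FMN and FAD, the flavin cofactors of many oxidases and dehydrogenases. Prodh, proline dehydrogenase, uses FAD to oxidize proline in mitochondria, and Prodh2, hydroxyproline dehydrogenase, uses FAD for the same step on hydroxyproline, an amino acid released when collagen is degraded. Aldh4a1, which uses NAD, completes both routes by oxidizing the semialdehydes they form, giving glutamate from proline and 4-hydroxyglutamate from hydroxyproline. The aspartate aminotransferase Got2 then makes 4-hydroxy-2-oxoglutarate, which the aldolase Hoga1 splits into pyruvate and glyoxylate. Glyoxylate is turned into glycine by the aminotransferase Agxt or by the mitochondrial aminotransferase Agxt2, or is reduced to glycolate by Grhpr. Hao1, an FMN enzyme of peroxisomes, forms glyoxylate from glycolate. Inherited loss of AGXT, GRHPR or HOGA1 causes primary hyperoxaluria in humans, since glyoxylate that is not removed is oxidized to oxalate.

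The bases upstream of the start sites are shown for the 3 enzymes that open and complete the proline and hydroxyproline routes, since these had the 3 lowest fold changes of the 7 genes in B2D. They are RefSeq sequences on GRCm38.p6, printed 5′ to 3′ on the strand of the gene and ending where the first exon of the GENCODE M21 annotation reaches into the window. Capitals mark matches to CCAAT, found here on the opposite strand and so read as ATTGG, and to AGGTCA, likewise read as TGACCT. The Aldh4a1 window lies at chr4:139622644-139622865 on the plus strand, that of Prodh2 at chr7:30493408-30493621 on the plus strand, and that of Prodh at chr16:18089293-18089440 on the minus strand, within an intron of the longer annotated Prodh gene.
Aldh4a1: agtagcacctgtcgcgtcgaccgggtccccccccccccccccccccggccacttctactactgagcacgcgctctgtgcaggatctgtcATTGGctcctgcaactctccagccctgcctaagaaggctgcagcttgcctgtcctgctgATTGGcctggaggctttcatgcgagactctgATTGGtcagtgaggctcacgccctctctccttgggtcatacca
Prodh2: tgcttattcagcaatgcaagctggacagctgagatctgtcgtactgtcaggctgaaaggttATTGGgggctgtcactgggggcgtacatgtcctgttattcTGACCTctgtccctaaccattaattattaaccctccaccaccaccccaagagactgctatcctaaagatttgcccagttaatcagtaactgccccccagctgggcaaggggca
Prodh: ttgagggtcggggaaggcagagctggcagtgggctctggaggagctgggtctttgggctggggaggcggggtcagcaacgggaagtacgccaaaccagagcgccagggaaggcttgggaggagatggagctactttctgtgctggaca
Aldh4a1 held 3 CCAAT matches, ending 157, 98 and 67 bases before its RefSeq start, Prodh2 held 1 CCAAT and 1 AGGTCA match, and the Prodh window held neither. Of 32851 RefSeq promoter windows of 250 bases searched on both strands, 33.8% had at least 1 CCAAT match, 2.79% had at least 3, and 14.0% had AGGTCA. The direct repeat AGGTCANAGGTCA, the spacing bound by PPARα with RXR, was in 0.0335% of windows and in none of the 7 genes' windows. These matches describe letters only, and no binding was measured.

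The 7 genes spanned about an order of magnitude in FPKM. This measure divides reads by all annotated exonic bases of a gene, so the order of the genes depends on that length. In Ctrl, Agxt was at 165 ± 42.8 FPKM (SD, n = 5) and Grhpr at 154 ± 27.2, with overlapping mice. Prodh2, at 79.8 ± 13.6, and Hoga1, at 70.9 ± 8.18, came next and overlapped each other but neither gene above. Aldh4a1, at 38.8 ± 3.19, and Agxt2, at 34.7 ± 5.0, overlapped below them, and Prodh was lowest at 18.9 ± 2.14, apart from all others. Of the pair that binds FAD, the hydroxyproline enzyme Prodh2 thus had the higher FPKM in fasted liver. Their reads lay closer, at 2916 to 4273 for Prodh2 and 2353 to 3366 for Prodh over Ctrl mice. The length divided out was 2459 bases for Prodh2 and 7797 for Prodh, which has 10 annotated transcripts. Which of these transcripts were made was not measured, so the size of the gap is uncertain. In B2D the same tiers stood apart, from Agxt at 172 ± 23.9 and Grhpr at 129.6 ± 24.0 FPKM to Prodh at 13.3 ± 3.33. Over all 4 groups there were between 948 and 12506 reads per gene and library, so counting error was small beside the spread between mice.

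**Figure D1:**
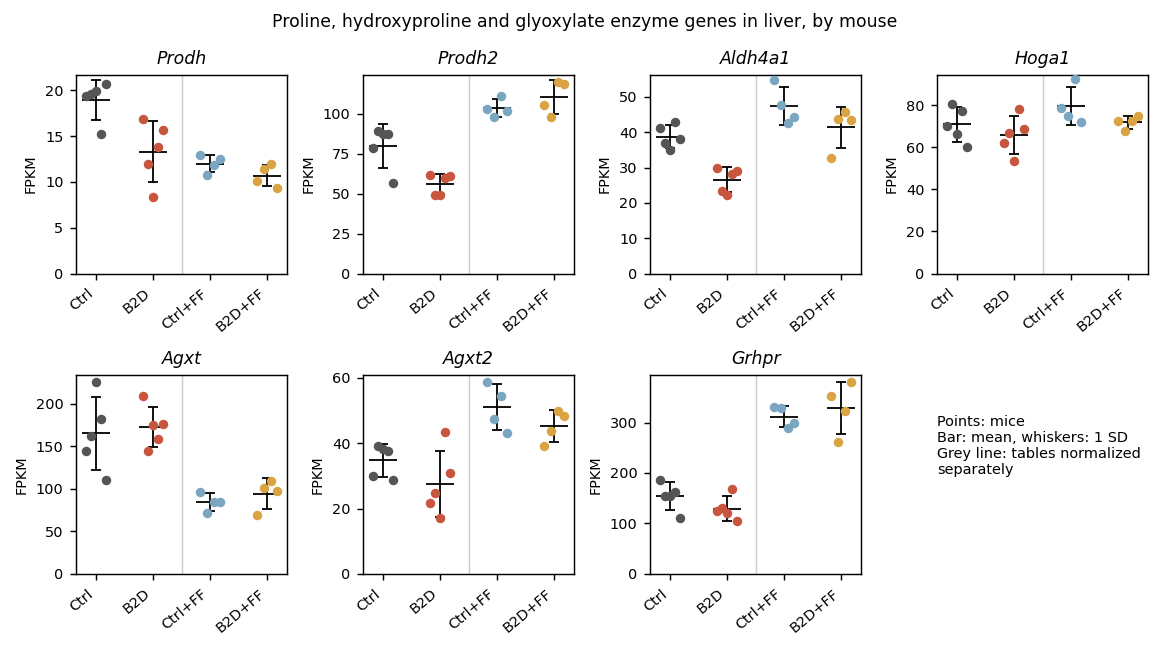
FPKM (linear axes from 0) of the 7 enzyme genes in each mouse of the 4 groups, with the mean and 1 SD; the grey line parts the tables, which were normalized separately. Every B2D mouse lies below every Ctrl mouse for Aldh4a1, while for the other genes the points of the diets overlap in both experiments.

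Without fenofibrate, the first question was which steps of the pathway differed between the diets. Aldh4a1 fell in B2D, while the FAD enzymes Prodh and Prodh2 had similar fold changes that missed the adjusted threshold, and the glyoxylate enzymes were closer to Ctrl. By limma on log2(FPKM + 1), with Benjamini-Hochberg adjustment over all 11574 genes tested, 1 of the 7 genes was lower at an adjusted p under 0.05 and none was higher, where 2.7% of all genes passed that threshold, 1.94% as lower and 0.769% as higher. Log2 fold changes were below 0 for 6 of the 7 genes, against 50.2% of all genes, with a median of -0.38, against -0.0013 over all genes and -0.11 over the 849 genes with a mean of at least 50 FPKM. An unadjusted p under 0.05 was reached by 3 of the 7, all lower, and by 18.4% of all genes, of which the lower ones made up 10.1% of the genes tested. In bulk liver, fewer cells that express a gene and less RNA of it per cell cannot be told apart.

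Aldh4a1, the dehydrogenase shared by both routes, was at 41.1, 36.8, 35.0, 42.9 and 38.1 FPKM in Ctrl mice 1 to 5. In B2D mice 1 to 5 it was at 29.9, 23.4, 22.1, 28.2 and 29.0 FPKM. The highest B2D mouse was below the lowest Ctrl mouse, a separation seen in the same direction for 2.89% of all genes. The mean fell by 31.5%, from 38.8 ± 3.19 to 26.5 ± 3.52 FPKM (SD, n = 5 each). The log2 fold change was -0.54 (SE 0.11, 95% confidence interval -0.78 to -0.29, limma adjusted p = 0.0281). An exact permutation test over mice, two-sided, gave p = 0.00794, the smallest that 5 mice against 5 allow. The gene lies at 139622866 to 139649690 on chromosome 4, plus strand (GRCm38), and shares 1595 exonic bases on that strand with the gene model Gm21969, which was at a mean of 0.0196 FPKM. The fold change stayed between -0.58 and -0.48 when each mouse was left out in turn, but the adjusted p passed 0.05 in 5 of the 10 refits, reaching 0.0731 without Ctrl 1, 0.0719 without Ctrl 2, 0.0872 without Ctrl 4, 0.0611 without B2D 2 and 0.0539 without B2D 4. Without a filter on low values the adjusted p was 0.0582.

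Prodh2, the hydroxyproline dehydrogenase, was at 78.6, 89.1, 87.2, 87.6 and 56.7 FPKM in Ctrl mice 1 to 5. In B2D mice 1 to 5 it was at 61.6, 49.4, 49.0, 60.0 and 60.9 FPKM. All B2D mice were below Ctrl mice 1 to 4, and Ctrl 5 fell within the B2D range. The log2 fold change was -0.49 (SE 0.14, 95% confidence interval -0.79 to -0.18), with an unadjusted p of 0.00445 and a limma adjusted p of 0.0928, and the exact permutation p was 0.0317. Without Ctrl 5 the log2 fold change was -0.60 and the limma adjusted p 0.0218.

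Prodh, the proline dehydrogenase, was at 19.3, 19.6, 19.9, 15.2 and 20.6 FPKM in Ctrl mice 1 to 5 and at 16.8, 11.9, 8.34, 13.8 and 15.6 in B2D mice 1 to 5. Only Ctrl 4 overlapped the B2D mice, of which B2D 3 was far the lowest. The log2 fold change was -0.51 (SE 0.16, 95% confidence interval -0.87 to -0.15), with an unadjusted p of 0.00937, a limma adjusted p of 0.132 and an exact permutation p of 0.0238. Prodh, Prodh2 and Aldh4a1, which had the 3 lowest fold changes of the 7 genes, lay within 0.05 of one another on the log2 scale. Of these, Aldh4a1 alone passed the threshold.

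**Figure D2:**
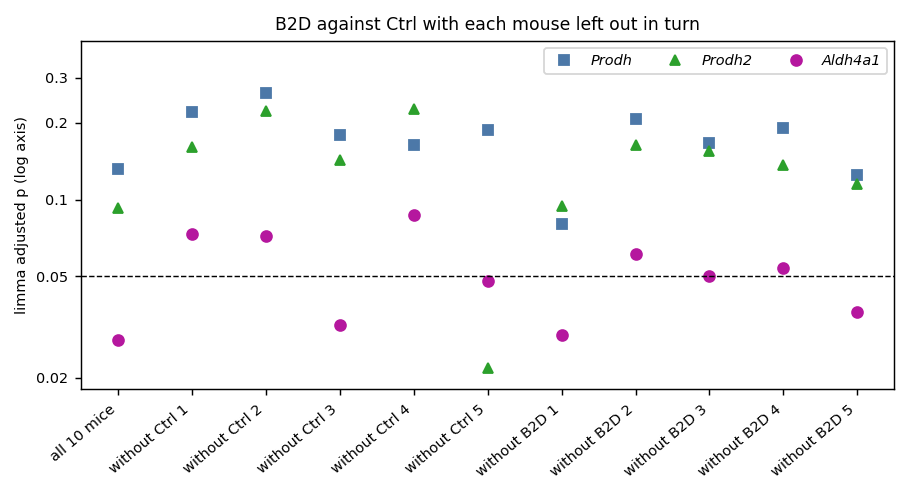
Limma adjusted p (log axis) of Prodh, Prodh2 and Aldh4a1 in B2D against Ctrl with all 10 mice and with each left out in turn; the dashed line is 0.05. Aldh4a1 lies above the line in 5 of 10 refits, Prodh2 passes below it without Ctrl 5 alone, and Prodh stays above it throughout.

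Further along the hydroxyproline route, Got2 and the aldolase Hoga1 differed little. Got2, which is not one of the 7 genes, averaged 112 ± 8.46 FPKM over Ctrl mice and 113 ± 14.2 over B2D mice, a log2 fold change of 0.0030 with a 95% confidence interval of -0.24 to 0.24. Hoga1 ran from 60.2 to 80.5 FPKM in Ctrl and from 53.4 to 77.9 in B2D. Its log2 fold change of -0.11 had a 95% confidence interval of -0.38 to 0.16 (limma adjusted p = 0.663), which leaves out a change as large as that estimated for Aldh4a1.

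The enzymes that dispose of glyoxylate did not pass the threshold. Agxt, which makes glycine from glyoxylate, ran from 111 to 226 FPKM in Ctrl and from 144 to 208 in B2D, with every B2D mouse inside the Ctrl range. Its log2 fold change was 0.093 (95% confidence interval -0.29 to 0.48, limma adjusted p = 0.814). Agxt2, the second aminotransferase, ran from 28.8 to 39.1 FPKM in Ctrl and from 17.1 to 43.3 in B2D, where both the lowest and the highest mouse of the experiment were found. Its log2 fold change was -0.38 (95% confidence interval -0.84 to 0.076, limma adjusted p = 0.355). Grhpr, the glyoxylate reductase, ran from 112 to 187 FPKM in Ctrl and from 105 to 169 in B2D, a log2 fold change of -0.25 (95% confidence interval -0.59 to 0.095, limma adjusted p = 0.421). These intervals are wide enough to include both no change and, for Agxt2 and Grhpr, a fall of the size estimated for Aldh4a1.

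Single mice were low for several of the genes together. Ctrl 5 was the lowest Ctrl mouse for 5 of the 7 genes (Prodh2, Hoga1, Agxt, Agxt2 and Grhpr) and the highest for Prodh. B2D 3 was the lowest B2D mouse for 5 of the 7 (Prodh, Prodh2, Aldh4a1, Hoga1 and Agxt2). These libraries also had the fewest genes above 0 FPKM of their groups, 17079 in Ctrl 5 and 15866 in B2D 3. How often each mouse was lowest over all genes was not computed, so the counts are not read as a trait of the 7 genes.

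The FMN enzyme Hao1, the other source of glyoxylate on this map, moved more than any of the 7 genes. It averaged 114 ± 24.3 FPKM over Ctrl mice and 47.0 ± 15.4 over B2D mice, with no overlap between the diets and a log2 fold change of -1.30 (SE 0.22, limma adjusted p = 0.0118, and 0.0548 without a filter on low values).

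**Figure D3:**
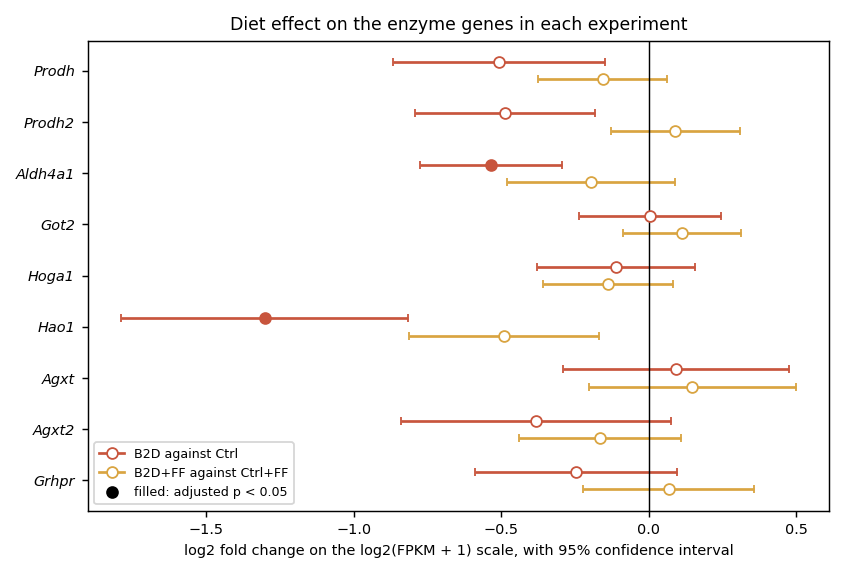
Log2 fold change on the log2(FPKM + 1) scale, with its 95% confidence interval, of the 7 enzyme genes and of Got2 and Hao1 in B2D against Ctrl and in B2D+FF against Ctrl+FF; filled points passed an adjusted p of 0.05. Aldh4a1 and Hao1 are filled without fenofibrate, and no point is filled with it.

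In the mice given fenofibrate, the same question was asked of B2D+FF against Ctrl+FF. None of the 7 genes passed the adjusted threshold by limma in either direction, where 4.45% of the 11878 genes tested did, and none had an unadjusted p under 0.05, where 21.2% did. Log2 fold changes ran from -0.20 for Aldh4a1 to 0.15 for Agxt, with a median of -0.14, and 4 of the 7 were below 0, against 47.2% of all genes. The groups overlapped for every one of the 7 genes, and were apart for 14.3% of all genes.

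Aldh4a1 was at 54.7, 47.8, 42.6 and 44.4 FPKM in Ctrl+FF mice 1 to 4. In B2D+FF mice 1 to 4 it was at 32.7, 43.7, 45.6 and 43.4 FPKM. Mouse 1 of B2D+FF was lowest and stood apart from the others of its group, which lay among the lower Ctrl+FF mice. The log2 fold change was -0.20 (SE 0.13, 95% confidence interval -0.48 to 0.088, limma adjusted p = 0.410), and without B2D+FF 1 it was -0.091.

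Prodh2 was at 103, 97.9, 111 and 101 FPKM in Ctrl+FF mice 1 to 4. In B2D+FF mice 1 to 4 it was at 105, 97.8, 119.7 and 119 FPKM. The B2D+FF mice held both the lowest and the highest values. The log2 fold change was 0.089 with a 95% confidence interval of -0.13 to 0.31 (limma adjusted p = 0.647).

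Prodh was at 12.9, 10.7, 11.8 and 12.5 FPKM in Ctrl+FF mice 1 to 4 and at 10.1, 11.4, 11.9 and 9.36 in B2D+FF mice 1 to 4. The diets overlapped, with the lowest mice of the experiment in B2D+FF. The log2 fold change was -0.16 with a 95% confidence interval of -0.37 to 0.061 (limma adjusted p = 0.388).

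The 4 genes that handle glyoxylate did not pass the threshold, as none of the 7 did, and their fold changes pointed both ways. Hoga1 had a log2 fold change of -0.14 (95% confidence interval -0.36 to 0.082) and Agxt2 of -0.16 (-0.44 to 0.11). Agxt had one of 0.15 (-0.20 to 0.50) and Grhpr one of 0.067 (-0.22 to 0.36). Hao1 averaged 72.6 ± 12.0 FPKM over Ctrl+FF mice and 51.2 ± 7.53 over B2D+FF mice (SD, 4 mice per group), with a log2 fold change of -0.49 with an unadjusted p of 0.00714 and a limma adjusted p of 0.0866.

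Whether the effect of the diet itself differed between the experiments was tested by a contrast in 1 limma fit of all 18 libraries. None of the 7 genes passed the adjusted threshold, where 0.228% of the 11862 genes tested did, 27 in all. Prodh2 had the largest difference of the 7, 0.58 on the log2 scale (SE 0.18, 95% confidence interval 0.20 to 0.95), from a fold change below 0 without fenofibrate to one slightly above 0 with it. Its unadjusted p was 0.00464 and its limma adjusted p 0.193. An exact permutation test that exchanged diets within each experiment gave p = 0.00805. That test assumes no effect of the diet in either experiment, so an effect without fenofibrate alone can lower its p. It therefore cannot decide whether the effects of the diet differed between the experiments. Prodh2 was the 1 gene of the 7 with an unadjusted p under 0.05 in the limma contrast, where 11.9% of all genes had one. Without Ctrl 5 its limma adjusted p was 0.0441. For Prodh the difference was 0.35 (95% confidence interval -0.091 to 0.79) and for Aldh4a1 0.34 (-0.010 to 0.69). An effect of the diet on Aldh4a1 that passed the threshold without fenofibrate and not with it was therefore not shown to differ between the experiments.

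Levels in the fenofibrate experiment are set beside the first without a test, since the tables were normalized separately. Summed hepatocyte markers were also unlike, with a median over mice of 38063 FPKM in Ctrl and 21970 in Ctrl+FF. Grhpr averaged 312 ± 20.7 FPKM over Ctrl+FF mice and 329 ± 51.3 over B2D+FF mice (SD, 4 mice per group), where Ctrl and B2D mice had averaged 154 ± 27.2 and 129.6 ± 24.0. The averages of Agxt were 84.2 ± 10.2 and 94.2 ± 17.8 FPKM, against 165 ± 42.8 and 172 ± 23.9 without the drug. Grhpr thus headed the order with fenofibrate, above every other gene of the 7 in every mouse, and Agxt overlapped with Hoga1 in both groups. Prodh2 was at 103 ± 5.70 and 110.3 ± 10.6 FPKM, Agxt2 at 51.0 ± 6.99 and 45.3 ± 4.91, and Prodh at 12.0 ± 0.968 and 10.7 ± 1.17. Prodh was again the lowest of the 7 in FPKM, apart from all others.

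The neighbouring pathways were read from 6 lists holding 75 genes of the tables, of which 60 were tested in each experiment. Without fenofibrate, 2 of the 60 were lower, Hao1 and Pycrl, and none was higher, beside 1.94% and 0.769% of all genes. Pycrl, an older name of Pycr3, which makes proline from pyrroline-5-carboxylate, the product of Prodh, averaged 21.6 ± 3.67 FPKM over Ctrl mice and 13.8 ± 2.01 over B2D mice. Its log2 fold change was -0.61 (SE 0.14, limma adjusted p = 0.0384), the diets did not overlap, and the adjusted p stayed under 0.05 in the 2 refits without Ctrl 5 or B2D 1, and was between 0.0582 and 0.106 in the 8 without any other mouse. Without a filter on low values it was 0.105. The 7 tested genes of proline synthesis, release and uptake had a median log2 fold change of -0.23. For the 8 listed under prolyl hydroxylation of collagen it was -0.050, but these include Plod1 and Plod3, which hydroxylate lysine rather than proline. The medians were -0.075 for 20 partners in glyoxylate and glycine metabolism, -0.10 for 10 genes of glutamate and transamination, -0.049 for 8 genes that handle the other substrates of Agxt2, and 0.19 for 7 genes of FAD supply and electron transfer.

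With fenofibrate, 1 of the 60 was lower and 6 were higher, where 2.21% and 2.24% of all genes were. Tat, tyrosine aminotransferase, averaged 299 ± 84.6 FPKM over Ctrl+FF mice and 751 ± 181 over B2D+FF mice, a log2 fold change of 1.35 (SE 0.25, limma adjusted p = 0.0188). Got1, the cytosolic aspartate aminotransferase, went from 126 ± 35.9 to 309 ± 61.8 FPKM, a log2 fold change of 1.31 (SE 0.23). The mitochondrial alanine aminotransferase Gpt2, at 0.55, the malate dehydrogenase Mdh2, at 0.70, and Gldc of the glycine cleavage system, at 0.58, also rose. Kyat1, a kynurenine aminotransferase, fell by 0.46 on the log2 scale. In B2D against Ctrl these genes moved in the same directions without passing the adjusted threshold. Log2 fold changes there were 0.76 for Tat, 0.97 for Got1, 0.28 for Gpt2, 0.096 for Mdh2, 0.47 for Gldc and -0.66 for Kyat1. None of them passed in the contrast between the experiments, with limma adjusted p from 0.108 for Mdh2 to 0.891 for Gldc. The calls of Got1, Mdh2 and Gldc held in all 8 refits that left out a mouse, that of Tat in 7 (adjusted p = 0.0577 without Ctrl+FF 1), that of Kyat1 in 3 and that of Gpt2 in 2. Without a filter on low values the adjusted p was 0.0608 for Tat, 0.0545 for Got1 and 0.0566 for Gpt2, and with all 4 groups in 1 fit it was 0.0704 for Gldc and 0.158 for Kyat1. The call of Mdh2 held in every alternative run. The aminotransferases of glyoxylate itself, Agxt and Agxt2, were not among those called. Hao2, an FMN oxidase of hydroxy acids, rose from 0.523 ± 0.322 to 3.36 ± 1.62 FPKM, a log2 fold change of 1.48 that was 2.51 with a pseudocount of 0.1 and 2.76 with limma voom on recovered reads. It had between 0 and 3 reads in each mouse without fenofibrate, where no effect of the diet on it could be measured. The medians of the lists were -0.11, 0.13, 0.11, 0.32, -0.047 and 0.23, in the order given above, against 0.013 over all genes.

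**Figure D4:**
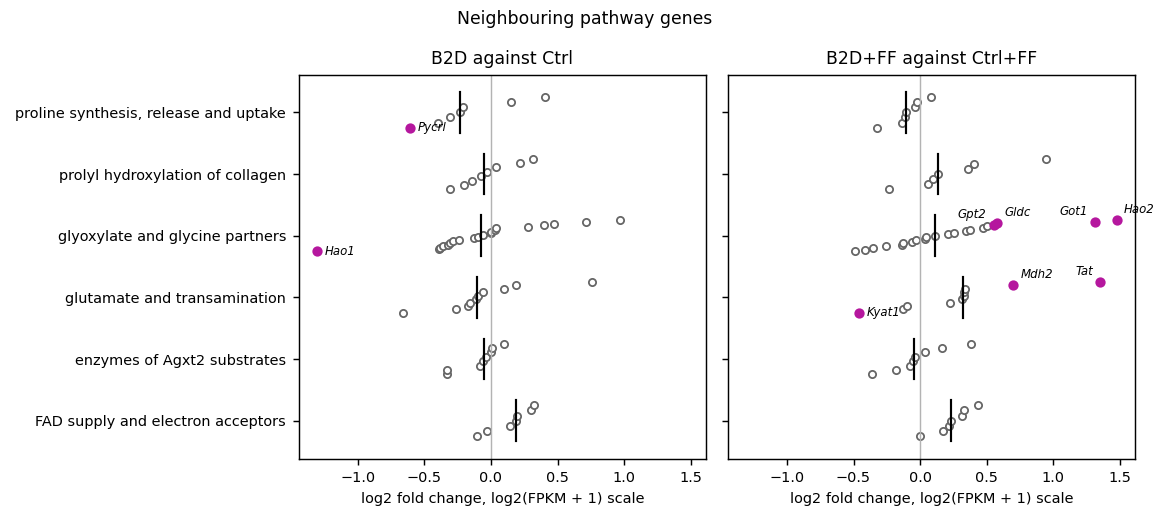
Log2 fold change of each tested gene of the 6 neighbouring lists in B2D against Ctrl (left) and B2D+FF against Ctrl+FF (right); filled, named points passed an adjusted p of 0.05 and vertical bars are list medians. Without fenofibrate the named genes are Pycrl and Hao1, both lower; with it 6 of the 7 named genes are higher.

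How the 7 genes varied together from mouse to mouse, after the mean of each group was taken out, was described over 18 libraries, which share depth and liver composition. Of 21 pairs, 20 had a Pearson correlation above 0, with a median of 0.35. Within the 10 libraries without fenofibrate 20 pairs were above 0 (median 0.38), and within the 8 with it 15 were (median 0.26). The share above 0 over all pairs of genes was not computed, so these counts are not read as a trait of the pathway. The highest was between Hoga1 and Agxt2, at 0.79, followed by Prodh2 with Agxt, at 0.67, and Prodh2 with Hoga1, at 0.66. Prodh2 with Agxt2 was at 0.56, so that all pairs among Prodh2, Hoga1 and Agxt2 lay above the median. The same held for Grhpr with each of these genes, at 0.49, 0.47 and 0.38. The pair of FAD enzymes, Prodh and Prodh2, was at 0.22, and the lowest pair was Prodh with Grhpr, at -0.21. Some pairs had unlike values of r in each experiment. Aldh4a1 with Agxt was at 0.079 without fenofibrate and 0.81 with it, and Prodh with Grhpr at -0.12 and -0.59. Hoga1 with Agxt2 was at 0.86 and 0.53, and Prodh2 with Hoga1 at 0.66 and 0.68. These pairs were picked from 21, over 10 and 8 libraries, and no difference between the experiments was tested. Mouse 1 of B2D+FF was the lowest of its group for both Aldh4a1 and Agxt.

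Among 4215 genes searched, the gene most like each of the 7 in these deviations was Gstt3 for Prodh (r = 0.78), Ttc36 for Prodh2 (0.90), Acy3 for Aldh4a1 (0.86), Pold4 for Hoga1 (0.93), Ass1 for Agxt (0.77), Ftcd for Agxt2 (0.90) and Eci1 for Grhpr (0.92). Agxt was next most like Pck1, at 0.76. Ass1, of the urea cycle, and Pck1, of gluconeogenesis, are both on the list of periportal hepatocyte markers used here.

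**Figure D5:**
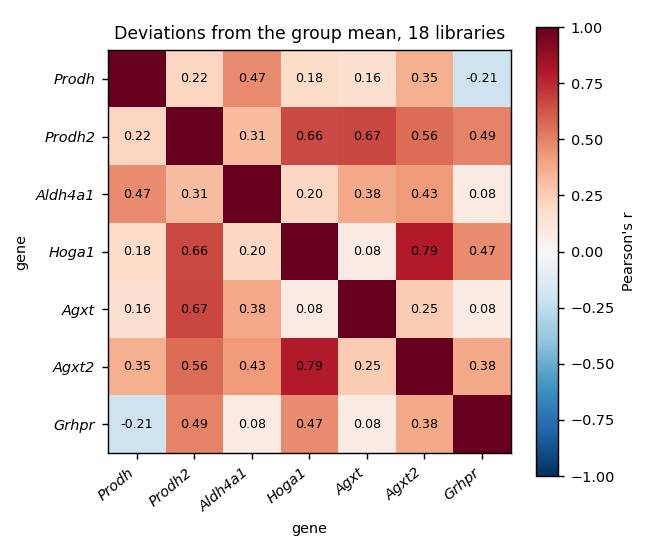
Pearson's r between the 7 genes over 18 libraries, computed on deviations from the group mean of log2(FPKM + 1); the colour scale runs from -1 to 1. Hoga1 with Agxt2 is the darkest pair, at 0.79, and Prodh with Grhpr the 1 pair below 0.

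The libraries held between 15320729 and 21898502 reads on genes, and mice of a group correlated at between 0.958 and 0.990. Hepatocyte markers summed to between 31742 and 46076 FPKM in mice without fenofibrate and to between 18588 and 24098 in mice given it, without overlap. Markers of lymphocytes summed to at most 1.70 FPKM and those of kidney tubule, where several of these enzymes are also expressed, to at most 0.203. Adipocyte markers reached 8.58 FPKM in B2D 2 and 3.15 in Ctrl+FF 1, and were at most 0.413 in the other mice. Without B2D 2 the log2 fold change of Aldh4a1 was -0.50 (limma adjusted p = 0.0611). In B2D against Ctrl, no hepatocyte marker of 5 was called, 1 of 6 periportal markers was lower (Cyp2f2) and none of 6 pericentral markers was called. There, 1 of 4 Kupffer cell markers (Clec4f) and 1 of 4 erythroid markers (Alas2) were lower. The periportal markers summed to between 2664 and 4436 FPKM in Ctrl and between 2602 and 4037 in B2D. The pericentral markers summed to between 5035 and 8508 FPKM in Ctrl and between 4018 and 6735 in B2D. In B2D+FF against Ctrl+FF, 2 of 6 periportal markers (Ass1 and Pck1), 1 of 5 hepatocyte markers (Tat) and 1 of 4 endothelial markers (Lyve1) were higher. Of 4 erythroid markers, 1 was lower (Alas2). Other markers went the other way without being called, periportal Cyp2f2 at -0.72 and Gls2 at -0.10, and hepatocyte Alb at -0.35 and Ttr at -0.34. Median log2 fold changes were 0.29 for the periportal, 0.30 for the hepatocyte and -0.019 for the endothelial markers. The part of liver zones and of other cells in the values of the 7 genes was not tested.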

How the data were processed

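Liver mRNA was sequenced. Per the labels and methods, STAR aligned the reads to mm10 and featureCounts assigned them to genes. Values were deposited by the authors as FPKM (RPKM in the methods), in 1 table per experiment, each normalized on its own. Whether counting used strand is not given in the sources used here. The deposited FPKM entered limma 3.58.1 (R 4.3.3) as log2(FPKM + 1), which understates changes of low genes, for all genes averaging at least 0.5 FPKM. The fit used a variance trend and Benjamini-Hochberg adjustment, with a threshold of 0.05. Each table was fitted alone, and the difference between them in 1 fit of 18 libraries. DESeq2, named in the methods, was not run. FPKM times gene length gave whole reads (100% of values under 1000 reads, tolerance 0.05 reads), used for limma voom. Mice were grouped by the diet and drug in the labels. Scripts were tested on simulated data. The members, lists and rules were chosen with earlier results of these data known. Named genes were the 7 members, their partners Got2 and Hao1, and every listed gene past the threshold. Alternatives changed the pseudocount (0.1), the filter (none, or 5 FPKM), the scaling (upper quartile, quantile), the weights (array weights), the values (voom), the fit (all 4 groups) and the libraries (each left out).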

Additional observations from a re-analysis of the deposited data

Results flagged for a closer look

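Among 68 combinations of gene and group examined for a mouse far from the others, 2 stood out, where chance marks about 1 in 20. Prodh in Ctrl was 15.2 FPKM in Ctrl 4 and between 19.3 and 20.6 in the other mice. Aldh4a1 in B2D+FF was 32.7 FPKM in B2D+FF 1 and between 43.4 and 45.6 in the other mice. For Hao2, the limma contrast between the experiments was 1.49 on the log2 scale (adjusted p = 0.00687, 0.0716 with a pseudocount of 0.1 and 0.308 with voom). Hao2 had between 0 and 3 reads in each mouse without fenofibrate and entered the contrast through the groups given the drug. The contrast thus carries the fold change of the fenofibrate experiment and shows no difference between the experiments.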

How the results depend on the processing

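No paired analysis was possible because the replicate numbers follow the order of the samples and pair no mice. In B2D against Ctrl, the number of the 7 genes lower, 1 as reported, was 0 without a filter on low FPKM, 2 with array weights (Aldh4a1 and Prodh2, whose adjusted p was 0.0455), 3 with all 4 groups in 1 fit (with Prodh2 at 0.0204 and Prodh at 0.0376), and between 0 and 2 when each mouse was left out. In the difference between the experiments, array weights called 1 of the 7 higher (Prodh2, adjusted p = 0.0426), and leaving out each mouse called between 0 and 1. Over all genes, B2D against Ctrl called 313 genes, 67 without a filter, 777 with all 4 groups in 1 fit and between 98 and 332 with each mouse left out. B2D+FF against Ctrl+FF called 529, 272 without a filter, 885 with array weights and between 175 and 596 with each mouse left out. The difference called 27, 16 with a pseudocount of 0.1, 136 with array weights, 13 with voom and between 17 and 66 with each mouse left out. Upper-quartile scaling changed the split in B2D+FF from 263 lower and 266 higher to 366 lower and 223 higher, and all 4 groups in 1 fit that in B2D from 224 lower and 89 higher to 471 lower and 306 higher. The causes were not tested.

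Signs turned for fold changes near 0. In B2D against Ctrl, Agxt was -0.040 without Ctrl 5 and ran up to 0.22 with other mice left out, and Got2 ran between -0.059 and 0.052 with each mouse left out. In B2D+FF against Ctrl+FF, Grhpr was -0.0066 without B2D+FF 4 and ran up to 0.17 with other mice left out. For the difference, Agxt was -0.041 with upper-quartile scaling, -0.097 with quantile normalization, -0.069 without Ctrl 3, -0.0074 without B2D 2, -0.024 without Ctrl+FF 2 and -0.024 without B2D+FF 3, and ran up to 0.20 with other mice left out. Got2 was -0.063 with quantile normalization, and Hoga1 was 0.027 without Ctrl 5, 0.035 without B2D 4 and 0.046 without Ctrl+FF 3, with a lowest value of -0.099 when a mouse was left out and -0.18 under the other alternatives. With 5 or 4 mice a group, the confidence intervals, rather than read depth, limit what can be said of these genes.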
